A study of Mus musculus with 2 samples.

Results

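Non-classical monocytes low in C1q were looked for among CD45+ cells sorted from mouse hearts. A droplet barcode was a member if it held at least 300 detected genes, at most 10% mitochondrial unique molecular identifiers (UMIs), and at least 2 UMIs of Ace, Treml4 and Cd300e together. It also held at least 1 UMI of Ptprc, which encodes CD45, 0 of the endothelial gene Cdh5 and under 3 of Cd3d, Cd3e and Cd3g. Per 10000 UMIs it held at most 20 of C1qa, C1qb and C1qc, under 50 of S100a8 and S100a9 and under 5 of Col1a1, Col3a1 and Dcn. These limits were met by 95 of 9770 kept barcodes, 88 of 5601 in the library from hearts with transverse aortic constriction (TAC) and 7 of 4169 in the sham library. The choice rests on measured RNA, so the levels of those genes describe the rule and are no result.

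Both groups were wild-type C57BL/6 mice aged 10 weeks. TAC narrows the aorta and raises the pressure against which the left ventricle pumps, and sham mice served as the controls. Each group is 1 library of sorted cells described as coming from 6 mice, so animals cannot be told apart, nothing separates library from condition, and no test between groups is possible. The sources used here do not give the time after surgery.

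Mouse blood monocytes come in a classical form, rich in Ly6C and the chemokine receptor CCR2, and a non-classical form, low in Ly6C and rich in the fractalkine receptor CX3CR1 and CD43. Non-classical monocytes derive largely from classical ones, depend on the nuclear receptor NR4A1, and patrol the walls of small vessels with help of the integrin LFA-1. The complement genes C1qa, C1qb and C1qc are high in tissue macrophages, and the C1q limit left 1827 of the 5601 kept TAC barcodes.

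Most of the TAC members carried non-classical monocyte genes beyond those of the rule, and the label could not be borne out for the sham ones. Among the 88 TAC members, 78 had at most 1 UMI of Fxyd2, which encodes a regulatory subunit of the sodium pump, and 10 had 26 to 372. This break was seen in the data, and the list counts against Ly6c2-positive monocytes are given with and without those 10 barcodes. The 78 are called monocyte-like members here, and 32 of them also held 2 or more Ly6c2 UMIs. Fcgr4, an activating receptor for IgG antibodies that marks non-classical monocytes, was detected in 75 of the 78. They held 0 to 50 UMIs of it per barcode, with a median of 14.0. Fcgr4 was also detected in 76 of the 90 Ly6c2-positive monocytes of TAC, so its detection alone did not separate these sets. Its summed UMIs differed, at 1233 in the 78 and 387 in the 90, although the 78 were shallower. Of the 3 rule genes, Ace (angiotensin-converting enzyme) was detected in 64 of the 78, Treml4 (a receptor of the TREM family) in 70 and Cd300e (an activating receptor of the CD300 family) in 52. Eno3, the marker that the rule did not use, encodes the beta form of the glycolytic enzyme enolase and was detected in 53 of the 78.

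The 10 members with 10 or more Fxyd2 UMIs stood apart. They were deep, at 29839 to 63583 UMIs, against 4174 to 51114 in the 78 monocyte-like members. In 7 of them Cd300e alone of the 3 rule genes was detected. Each held 5 to 39 UMIs of Trem2, a lipid receptor of macrophages, 1 to 97 of Spp1 (osteopontin) and 52 to 510 of the chemokine gene Cxcl2. Hmga2, a chromatin protein of growing cells, was detected in 9 of the 10 and in 0 of the 78, which allows up to 3.85% of barcodes with a UMI, although the 78 were shallower (median 38603.5 UMIs in the 10 and 10397.5 in the 78). Fcgr4 had a median of 1.5 UMIs in the 10, despite their depth. Eno3 was detected in 9 of the 10, so its detection did not separate them from the 78.

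The 7 sham barcodes were of more than one kind. As a description of the rule genes, 6 of the 7 had exactly 2 UMIs of them and 1 had 3, while 55 of the 88 TAC members had 6 or more and 13 had exactly 2. In the sham library 4 of the 7 had 51 to 238 Fxyd2 UMIs, 33007 to 69305 UMIs in all and 2 UMIs of Cd300e with 0 of Ace and Treml4. Eno3 was detected in each of these 4. The other 3, at 6007 to 9565 UMIs, held 14, 8 and 4 UMIs of Nr4a1 and 0 to 2 of each rule gene. None of the 7 had a UMI of Fcgr4, which was scarce in the sham library as a whole, at 29.7 CPM in the other kept barcodes. At 24166 UMIs in all, the 3 are too few and shallow to place. The 7 are called the sham barcodes that met the rule.

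**Figure D1:**
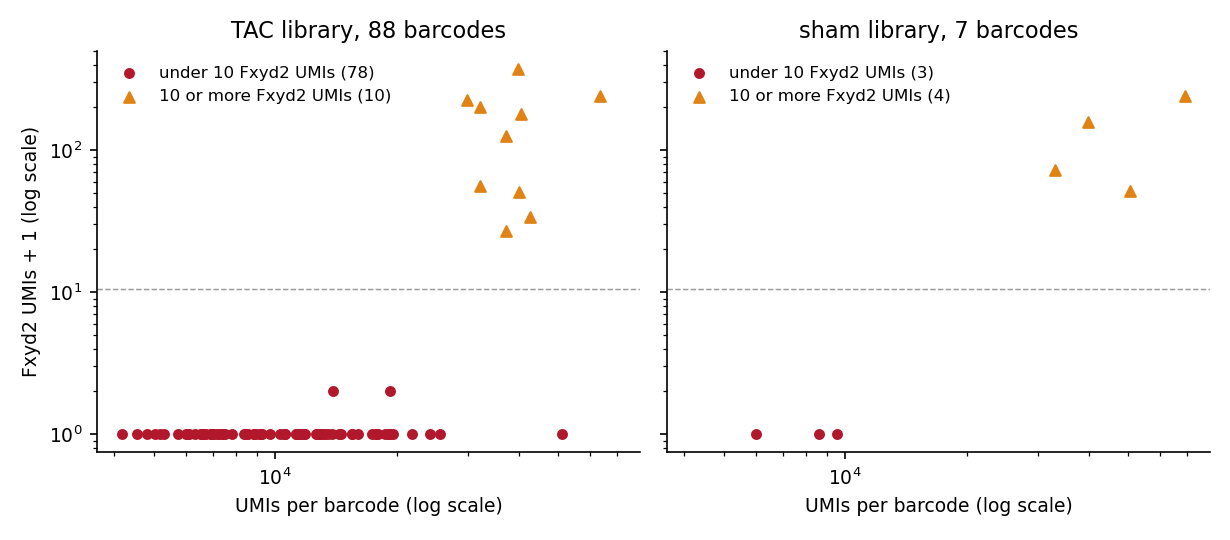
Fxyd2 UMIs (plus 1) against total UMIs for each barcode that met the rule, both on log scales, TAC library left and sham library right. In TAC 78 barcodes lie at 0 or 1 Fxyd2 UMI and 10 deep ones at 26 or more, and in sham the barcodes divide into 3 and 4.

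Members were a larger share of the TAC library. They were 1.57% of kept TAC barcodes (88 of 5601, exact Clopper-Pearson 95% interval 1.26 to 1.93) and 0.168% of kept sham barcodes (7 of 4169, 0.0675 to 0.346), a ratio of 9.36 (4.36 to 24). Counting barcodes with under 10 Fxyd2 UMIs alone, the shares were 1.39% in TAC (78) and 0.0720% in sham (3), a ratio of 19.4 (6.38 to 95.9). All intervals cover counting error only. Ly6c2-positive monocytes, defined by the same limits with 0 UMIs of the 3 rule genes, at least 2 of Ly6c2 and at least 1 of Csf1r, were 1.61% in TAC (90) and 0.648% in sham (27), a ratio of 2.48 (1.60 to 3.97).

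The share ratio varied with the limits used. Kept barcodes were shallower in sham, at a median of 9536 UMIs against 13892 in TAC. Shallow barcodes reach 2 raw UMIs of the rule genes less readily, and the part of depth in the ratio was not tested. The libraries also differ in mitochondrial RNA, and whether this bears on the ratio was not tested. Kept barcodes had a median of 4.42% mitochondrial UMIs in TAC and 8.02% in sham. At a limit of 5% the sham library kept 121 barcodes with 1 member, and the ratio was 2.50 (lower bound 0.434). At 1 UMI of the rule genes in place of 2 the ratio was 3.43 (2.27 to 5.36), with 129 TAC and 28 sham members. Just outside the rule, 41 TAC and 21 sham barcodes held 1 UMI of the 3 genes, and 91 TAC and 26 sham barcodes exceeded the C1q limit and met the rest. In TAC 6 members had 15 to 20 C1q UMIs per 10000, and 3 of the 91 over the limit had at most 25.

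Library depth was 97983083 UMIs over 7975 barcodes in TAC and 87532984 over 11941 in sham. The 88 TAC members held 1293652 UMIs (median 11361 per barcode), the 78 monocyte-like ones 898220 (median 10397.5) and the 90 Ly6c2-positive monocytes of TAC 1511269 (median 16154). Between the libraries 35 barcode sequences were shared, 1 of them a member's.

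RNA free in the droplets can give a cell UMIs of a gene it does not express, and fibroblasts served to gauge this. The members were chosen on Ace, Treml4 and Cd300e, so their own shares for these genes describe the rule and are no result. After each barcode was thinned to 1000 UMIs, Treml4 was detected in 14.1% (7.26 to 23.8) of the 78 monocyte-like members and Cd300e in 14.1%, and each in 0 of 250 fibroblast-marked barcodes of TAC, which carry at least 20 UMIs of Col1a1, Col3a1 and Dcn per 10000. Without thinning the shares were 89.7% for Treml4 and 66.7% for Cd300e in the members and 0.398% and 0.797% in fibroblast-marked barcodes (median 15038 UMIs). Ace was different. It was detected in 24.4% of the thinned monocyte-like members and in 30.8% (25.1 to 36.9) of the thinned fibroblast-marked barcodes. Ace alone therefore did not separate members from fibroblasts. Without thinning it was detected in 89.2% of fibroblast-marked barcodes. These barcodes could thus not gauge free RNA for Ace, and its source in them was not tested. Eno3 was at 15.4% in the members and 0.400% in fibroblast-marked barcodes, and Fcgr4 at 71.8% and 2%.

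Set against the Ly6c2-positive monocytes of the same TAC library, the monocyte-like members carried the wider non-classical set of genes. The members were chosen on Ace, Treml4 and Cd300e and their comparator on Ly6c2, so genes that go with these were bound to differ, and the values are a description. A gene counts as measured with at least 50 CPM (UMIs per 1000000 UMIs of the set) in either set and 20 UMIs over both, and as called when past 2-fold. Over all 2870 measured genes 195 were called higher (6.79%) and 152 lower (5.30%) in the 78. Of 23 measured non-classical monocyte genes, 20 were called higher and 0 lower. Their median log2 ratio was 2.12 (interval over genes 1.47 to 3.27), and that of all measured genes 0.05. With all 88 members 164 of 2833 genes were called higher (5.79%) and 171 lower (6.04%), the list gave 18 of 23 higher and 0 lower, and its median was 1.92. That median moved to 1.06 when 1 UMI of the rule genes sufficed for membership.

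Surface receptors of non-classical monocytes were among the higher genes of the list. Adgre4, an adhesion G protein-coupled receptor, stood at 121 CPM in the 78 and 5.29 CPM in Ly6c2-positive monocytes, 22.9-fold higher (11.2 to 54.4). Fcgr4 stood at 1373 and 256 CPM, 5.36-fold higher (4.78 to 6.02). Spn, the sialoglycoprotein CD43, was at 151 and 28.5 CPM, 5.32-fold higher. Cx3cr1 was at 92.4 and 19.2 CPM, 4.82-fold higher (3.12 to 7.63), but it was detected in 33 of the 78 members. Cx3cr1 was also at 101 CPM in the other kept TAC barcodes, so it separated members from Ly6c2-positive monocytes and not from the library at large. S1pr5, a sphingosine 1-phosphate receptor, had 32 UMIs in 25 of the 78 members and 0 in Ly6c2-positive monocytes, at least 17.9-fold higher, taking 3 counts as the floor for a set at 0, but at 35.6 CPM it was under the limit for measurement and is not among the 23. The adhesion molecule gene Ceacam1 was 3.75-fold and the tetraspanin gene Cd9 3.61-fold higher.

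Enzymes, signalling proteins and secreted products of the list differed as much. Eno3 had 223 UMIs in the 78 members (248 CPM) and 0 in the 90 Ly6c2-positive monocytes, at least 125-fold higher. Ear2, an eosinophil-associated ribonuclease, was at 236 and 12.6 CPM, 18.8-fold higher (11.7 to 31.8), though Ear genes are near-identical copies and the value of one is uncertain. Dusp16, a phosphatase of stress kinases, was 12.6-fold higher and Pglyrp1, a peptidoglycan-binding protein, 12-fold. Gngt2, a G protein gamma subunit, was detected in each of the 78, at 2015 and 314 CPM, 6.41-fold higher (5.79 to 7.11). The kinase gene Stk10 was 4.21-fold higher. Hpgd, which inactivates prostaglandins, had 71 UMIs in the members and 1 in the comparator, a ratio of 119 (20.8 to 4784). The C-type lectin gene Clec4a3 was 2.38-fold, the fatty acid transporter gene Cd36 2.34-fold and Lst1 2.13-fold higher. Clec4a1 (1.94-fold), Cebpb (1.34-fold) and Klf2 (1.33-fold) were measured and not called, and Apoc2 had 4 UMIs and 0.

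**Figure D2:**
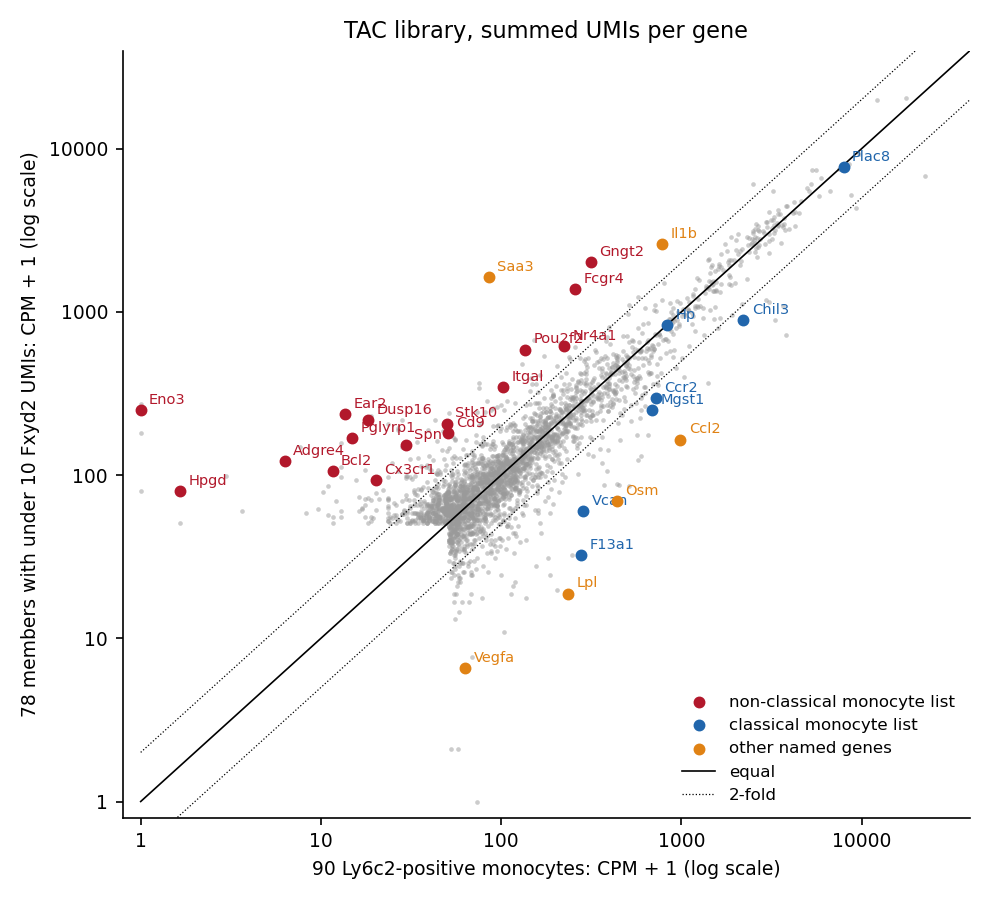
Summed level of each measured gene in the 78 monocyte-like members (y) and in the 90 Ly6c2-positive monocytes (x) of the TAC library, as CPM plus 1 on log scales, with lines at equality and at 2-fold. Of 23 genes of the non-classical list 20 lie above the upper line, led by Eno3 at 248 and 0 CPM. Vcan and Ccr2 lie below the lower line, and Plac8 and Hp near equality.

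A few promoters of these genes are shown because the genes were higher together. RefSeq promoter sequences, 250 bases before to 50 after the gene start on GRCm38.p6, matched 25 of the 28 rule and list genes with 27 promoters. The motifs searched, on both strands, were the NR4A1 response element AAAGGTCA, the PU.1 motif GAGGAAGT and the C/EBP motif TTGCNNAA. They did not overlap in the promoters shown, where motif matches are in capitals. Eno3 is shown as the gene with the highest ratio over Ly6c2-positive monocytes, and holds no match. The PU.1 motif on the reverse strand is capitalised in Fcgr4 and Adgre4, and the C/EBP motif in Adgre4 and Ear2.
Eno3, chr11:70656926-70657225, plus strand: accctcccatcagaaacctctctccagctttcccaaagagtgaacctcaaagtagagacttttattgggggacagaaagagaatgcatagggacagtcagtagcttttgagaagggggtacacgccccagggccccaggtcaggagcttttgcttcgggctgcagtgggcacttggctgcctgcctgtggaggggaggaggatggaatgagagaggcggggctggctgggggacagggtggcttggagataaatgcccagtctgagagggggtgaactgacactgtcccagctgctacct
Fcgr4, chr1:171018676-171018975, plus strand: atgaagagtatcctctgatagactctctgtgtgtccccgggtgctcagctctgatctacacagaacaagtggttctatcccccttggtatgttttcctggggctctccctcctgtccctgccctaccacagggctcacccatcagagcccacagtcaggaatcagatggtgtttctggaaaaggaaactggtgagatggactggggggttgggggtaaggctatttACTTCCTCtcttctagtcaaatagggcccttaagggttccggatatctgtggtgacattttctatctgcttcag
Adgre4, chr17:55749734-55750033, plus strand: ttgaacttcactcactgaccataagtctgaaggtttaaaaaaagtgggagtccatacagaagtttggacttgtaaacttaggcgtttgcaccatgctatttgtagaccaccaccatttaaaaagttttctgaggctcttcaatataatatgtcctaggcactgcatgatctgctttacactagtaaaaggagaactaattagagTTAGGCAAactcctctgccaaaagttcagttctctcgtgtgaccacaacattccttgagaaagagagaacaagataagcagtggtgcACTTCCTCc
Ear2, chr14:44102404-44102703, plus strand: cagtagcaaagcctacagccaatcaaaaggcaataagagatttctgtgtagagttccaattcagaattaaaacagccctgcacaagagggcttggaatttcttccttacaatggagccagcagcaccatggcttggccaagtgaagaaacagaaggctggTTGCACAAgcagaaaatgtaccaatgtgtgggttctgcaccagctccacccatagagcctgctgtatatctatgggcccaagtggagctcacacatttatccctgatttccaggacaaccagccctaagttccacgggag

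The PU.1 motif was in 2 of the 27 promoters (7.41%), against 3.20% of 32851 promoters. The C/EBP motif was in 2 (7.41%), against 10.8%. The NR4A1 response element was in 0 of the 27, against 1.51%. A match is a run of letters in this window, and nothing follows from it about binding. By GENCODE vM21 on GRCm38 the protein-coding gene Eno3 (ENSMUSG00000060600) spans 70657202 to 70662513 on chromosome 11, where the rule genes Ace (105967945 to 105989964) and Cd300e (115051917 to 115062177) also lie. Fcgr4 (ENSMUSG00000059089) spans 171018920 to 171029761 on chromosome 1 and Adgre4 (ENSMUSG00000032915) 55749984 to 55853662 on chromosome 17, the chromosome of Treml4 (48264295 to 48275360).

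Other genes with the highest ratios had mixed roles. Slc12a2, a sodium, potassium and chloride cotransporter, had 71 UMIs in 39 of the 78 members and 0 in Ly6c2-positive monocytes, at least 39.8-fold higher. Lilra5, an immunoglobulin-like receptor, had 88 and 3 UMIs, a ratio of 49.4 (16.3 to 244). Acp5, the phosphatase TRAP, was 22.2-fold higher, Ltb (lymphotoxin beta) 22.3-fold and Grk3, a kinase of G protein-coupled receptors, 13.1-fold (7.98 to 22.7). The RNA-binding protein gene Rbpms was 9.35-fold higher. Fabp4, a fatty acid-binding protein that capillary endothelium also expresses, was 12.9-fold higher, at 230.5 and 17.9 CPM in 42 and 10 barcodes.

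Saa3, an acute-phase apolipoprotein, was carried by a minority of members. It was at 1629.9 and 84.7 CPM, 19.2-fold higher (16.1 to 23.2), but was detected in 15 of the 78, and 1 barcode with 475 UMIs held 32.4% of the sum. In Ly6c2-positive monocytes it was detected in 18 of 90 and 1 barcode held 32.8%.

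Some genes were concentrated in these few barcodes out of the whole library. The 78 held 0.994% of the UMIs of all kept TAC barcodes. They held 26.6% of the Ear2 UMIs (212 of 797, 23.6 to 29.8), 21.5% of Adgre4 (109 of 507), 15.2% of Eno3 (223 of 1464), 13.7% of Slc12a2 and 13% of Grk3. Of Fcgr4 they held 2.68%, of Lilra5 1.09%, of Cx3cr1 0.903%, of Hpgd 0.825%, of Pglyrp1 0.808% and of Fabp4 0.331%. Those shares are near or under 0.994% for all but Fcgr4, so these genes set the members apart from Ly6c2-positive monocytes and not from the library at large.

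Classical monocyte genes were lower in the members, but not as a block. Of 16 measured, 0 were called higher and 8 lower in the 78, with a median log2 ratio of −1.06 (−1.46 to −0.05). With all 88 members 1 was higher and 9 lower of 17, the median was −1.10, and the higher one was Lyz1, of which 1 barcode held 91.6% of the UMIs. Vcan, the proteoglycan versican, was at 59.0 CPM in the 78 and 284 CPM in Ly6c2-positive monocytes, 4.81-fold lower, in 9 and 68 barcodes. Ccr2 was at 295 and 718 CPM, 2.43-fold lower (2.13 to 2.79). Mgst1, a glutathione transferase, was 2.75-fold lower, the chitinase-like gene Chil3 2.49-fold, the granule gene Prtn3 2.73-fold, Fn1 (fibronectin) 2.57-fold and the coagulation factor gene F13a1 8.85-fold. For the last 3, 1 member held 84.6%, 88.4% and 85.7% of the UMIs of the 78.

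Plac8 (7687 and 7946 CPM) and Hp, the haemoglobin-binding protein haptoglobin (829 and 836 CPM), differed by under 1.1-fold in either direction. S100a4 was 1.78-fold, Ifitm6 1.60-fold, Ms4a4c 1.56-fold and Ifi27l2a 1.35-fold lower, Gpr141 was 1.47-fold and Ly6a 1.48-fold higher, and none of these was called. Ly6c1 and Lyz1 were under the limits for measurement in the 78.

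The 78 members spanned a range of Ly6c2. The gene was at 0 UMIs in 42 of them, 1 UMI in 4, 2 to 9 in 16 and 10 or more in 16, with a highest value of 77.0. In the Ly6c2-positive monocytes the median was 62.0 and 76 of 90 had 10 or more. The 32 members with 2 or more (median 9.50) carried the non-classical genes too. Against the Ly6c2-positive monocytes they had 17 of 23 non-classical genes called higher and 0 lower, at a median log2 ratio of 1.78 (1.06 to 2.69). Over all 2835 measured genes 5.40% were called higher and 5.15% lower. Their classical genes had a median of −0.56 (−1.22 to 0.17), with 5 of 16 called lower. That interval includes 0. Summed over the classical list without Ly6c2, the 32 stood at 22372 CPM and the Ly6c2-positive monocytes at 22295 CPM. That sum did not separate the 32 from classical monocytes.

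**Figure D3:**
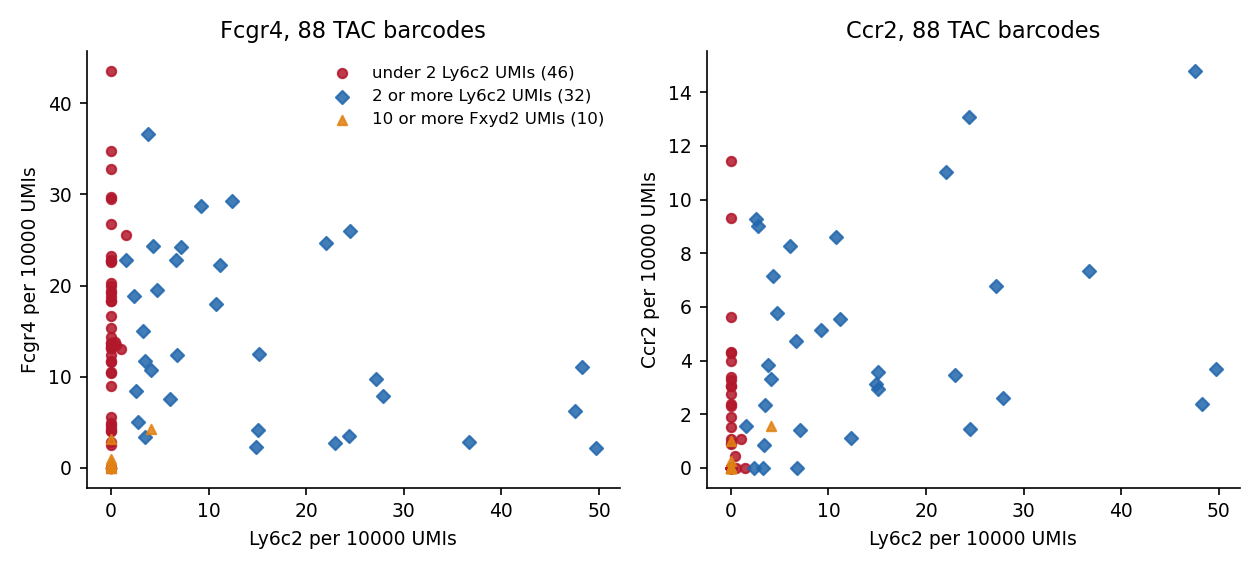
Fcgr4 (left) and Ccr2 (right) against Ly6c2, each per 10000 UMIs, for the 88 TAC barcodes that met the rule, split into 46 with under 2 and 32 with 2 or more Ly6c2 UMIs and the 10 with 10 or more Fxyd2 UMIs. Fcgr4 is spread over the Ly6c2-negative and Ly6c2-positive monocyte-like members, and 9 of the 10 have 0 Ly6c2 UMIs.

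The 46 members with under 2 and the 32 with 2 or more Ly6c2 UMIs were set side by side, a split made on the data. They differed in both gene sets. Genes that go with Ly6c2 were bound to differ, and the values are a description. The cut was on raw UMIs, and the median depth was 8613.50 UMIs in the 46 and 11538.5 in the 32. Of 2914 genes 172 were called higher (5.90%) and 149 lower (5.11%) in the 46. Non-classical genes were called higher for 7 of 23 and lower for 0, at a median log2 ratio of 0.57 (0.41 to 1). Cd9 was at 274 and 65.9 CPM, 4.17-fold higher (2.74 to 6.55), Ear2 at 334 and 119.5 CPM, 2.79-fold, Dusp16 at 303 and 112 CPM, 2.70-fold, and Eno3 at 329.7 and 151 CPM, 2.18-fold. Fcgr4 (1532 and 1183 CPM), Nr4a1 (696 and 515 CPM) and Cx3cr1 (104 and 78.1 CPM) were not called. The interval of the Cx3cr1 ratio, 0.843 to 2.15, includes 1.

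Classical and antigen presentation genes ran the other way in that split, as those that go with Ly6c2 were bound to. Ccr2 was at 125 CPM in the 46 and 498 CPM in the 32, 3.98-fold lower (2.98 to 5.39). MHC class II genes, whose products present antigen to helper T cells, were called lower for 5 of 9 and higher for 0, with a median of −1.02 (−1.25 to −0.50). Among them H2-Ab1 was at 2029 and 4816 CPM, 2.37-fold lower, and Ciita, the master regulator of these genes, 3.06-fold lower. Interferon-stimulated genes were called lower for 10 of 32 and higher for 0 (median −0.69), with Iigp1 3.05-fold and Isg15 2.68-fold lower. Hp went with the non-classical genes, at 1157 and 439 CPM, 2.63-fold higher. Histone genes led the lower end, but 1 cycling barcode of 51114 UMIs held 98.1% of the Hist1h3c and 93.3% of the Hist1h1b UMIs of the 32.

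**Figure D4:**
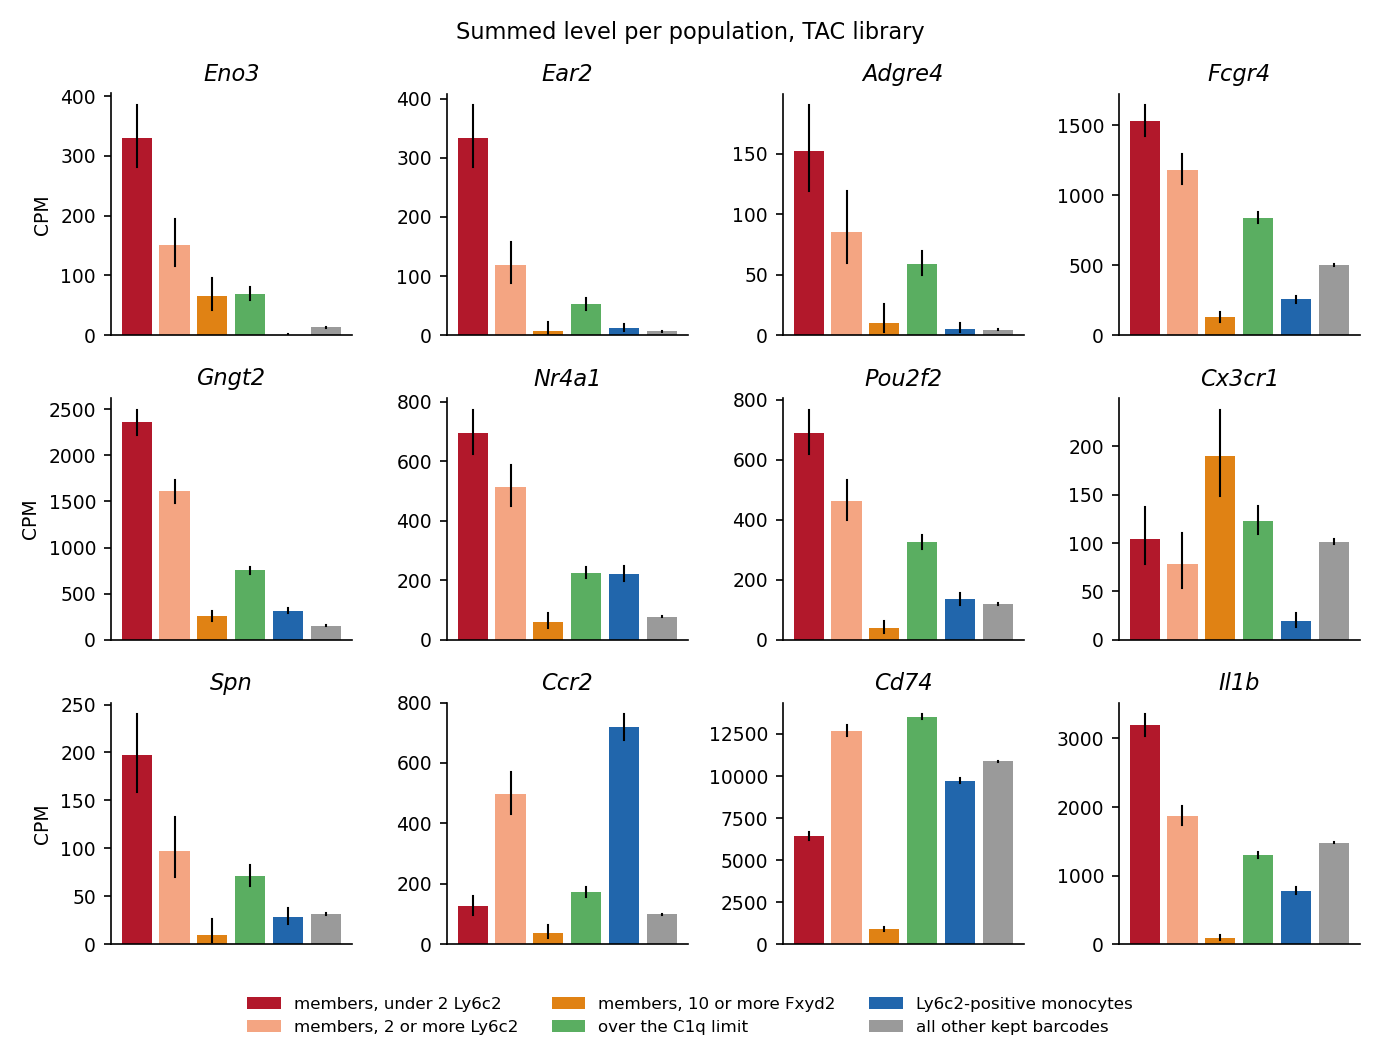
Summed level (CPM) of 12 genes in 6 populations of the TAC library, bars with exact Poisson 95% intervals as lines. Eno3, Ear2, Adgre4, Fcgr4, Gngt2, Nr4a1, Pou2f2 and Spn are highest in members with under 2 Ly6c2 UMIs, Ccr2 in Ly6c2-positive monocytes, and the grey bar takes in the 5513 kept barcodes that are no member.

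Transcription factors of monocyte fate were called higher for 4 of 18 and lower for 2 in the 78, at a median log2 ratio of 0.41 (−0.11 to 0.75), and with all 88 the same counts held at a median of 0.02. Nr4a1 was at 613 CPM in the 78 and 222 CPM in Ly6c2-positive monocytes, 2.77-fold higher (2.41 to 3.18). Pou2f2 (the octamer-binding factor Oct2) was at 587 and 135 CPM, 4.35-fold higher, Hes1, a target of Notch signalling, at 77.9 and 9.26 CPM, 8.41-fold, and Id2, an inhibitor of helix-loop-helix factors, 3.03-fold. Maf and Cebpd, at 2.58-fold and 2.12-fold, were the lower ones.

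Survival genes were called higher for 5 of 16 and lower for 0, with and without the 10. Bcl2, which blocks apoptosis, was at 105 CPM in the 78 and 10.6 CPM in Ly6c2-positive monocytes, 9.88-fold higher (5.78 to 18). Bcl2a1a was 4.90-fold higher, though Bcl2a1 genes are near-identical copies. Pmaip1, a gene that promotes apoptosis, was also 2.88-fold higher.

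Adhesion and migration receptors went both ways, with 7 of 20 called higher and 3 lower in the 78, and 5 and 4 of 19 with all 88. Itgal, the alpha chain of LFA-1, was at 346 and 102 CPM, 3.40-fold higher (2.79 to 4.15), Pecam1 (CD31) at 92.4 and 14.6 CPM, 6.35-fold, and Itgax (CD11c) at 59.0 and 11.9 CPM, 4.95-fold. Ccr1 (3.71-fold) and Ccr2 were among the lower ones. Fc and inhibitory receptors were called higher for 7 of 20 and lower for 0 in the 78 (median 0.72, 0.10 to 1.30), and for 4 and 1 of 19 with all 88. Cd300ld was 7.96-fold higher (5.66 to 11.4), at 216 and 27.1 CPM, while Fcgr1, the high-affinity IgG receptor, was 1.58-fold lower and not called.

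Inflammatory genes split by product. Of 25 measured pattern recognition and inflammatory genes, 13 were called lower and 3 higher in the 78 (median −1.02, −1.89 to 0.22), and 8 and 2 with all 88 (median −0.39). Il1b, the cytokine interleukin-1 beta, was higher, at 2592 CPM in 77 of 78 members and 782 CPM in 54 of 90 Ly6c2-positive monocytes, 3.31-fold (3.09 to 3.56). The receptor genes Tlr7 (2.73-fold) and Nod1 (2.41-fold) were the others higher. Ccl2, the ligand of CCR2, was at 164 and 987 CPM, 6.03-fold lower (5.09 to 7.19), the cytokine gene Osm at 67.9 and 438 CPM, 6.45-fold lower, and the angiogenic factor gene Vegfa at 5.57 and 62.2 CPM, 11.2-fold lower (4.62 to 35.2).

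Other genes with the lowest ratios had mixed roles. Lpl (lipoprotein lipase) was at 17.8 and 235 CPM, 13.2-fold lower (8.01 to 23.3). Spp1 was 7.92-fold lower, with 85.7% of the members' UMIs in 1 barcode, Cxcl9 7.85-fold, the matrix protein gene Thbs1 6.05-fold and Odc1, the first enzyme of polyamine synthesis, 8.12-fold. Gas7 and Plcb1 were 11.1-fold and 10.1-fold lower, and the adhesion receptor gene Cd84 6.31-fold. C3ar1, the receptor of complement C3a, had 1 and 78 UMIs, a ratio of 46.4 (8.08 to 1854) towards Ly6c2-positive monocytes. Cxcl3 had 1 and 86 UMIs. Ccl17 had 0 and 110, and the 110 lay in 1 barcode.

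Interferon-stimulated genes were lower in part in the members, and MHC class II genes were not called in either direction in the 78. In the 78, 0 of 37 interferon-stimulated genes were called higher and 7 lower (median −0.25, −0.48 to −0.10), and 0 and 0 of 9 MHC class II genes (median −0.07, −0.54 to 0.12). With all 88 these were 0 and 11 of 36 (median −0.71) and 0 and 1 of 9 (median −0.59). Cxcl10 was 3.32-fold and Ifit1 3.40-fold lower in the 78, and Cd74 was at 9292 and 9722 CPM.

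**Figure D5:**
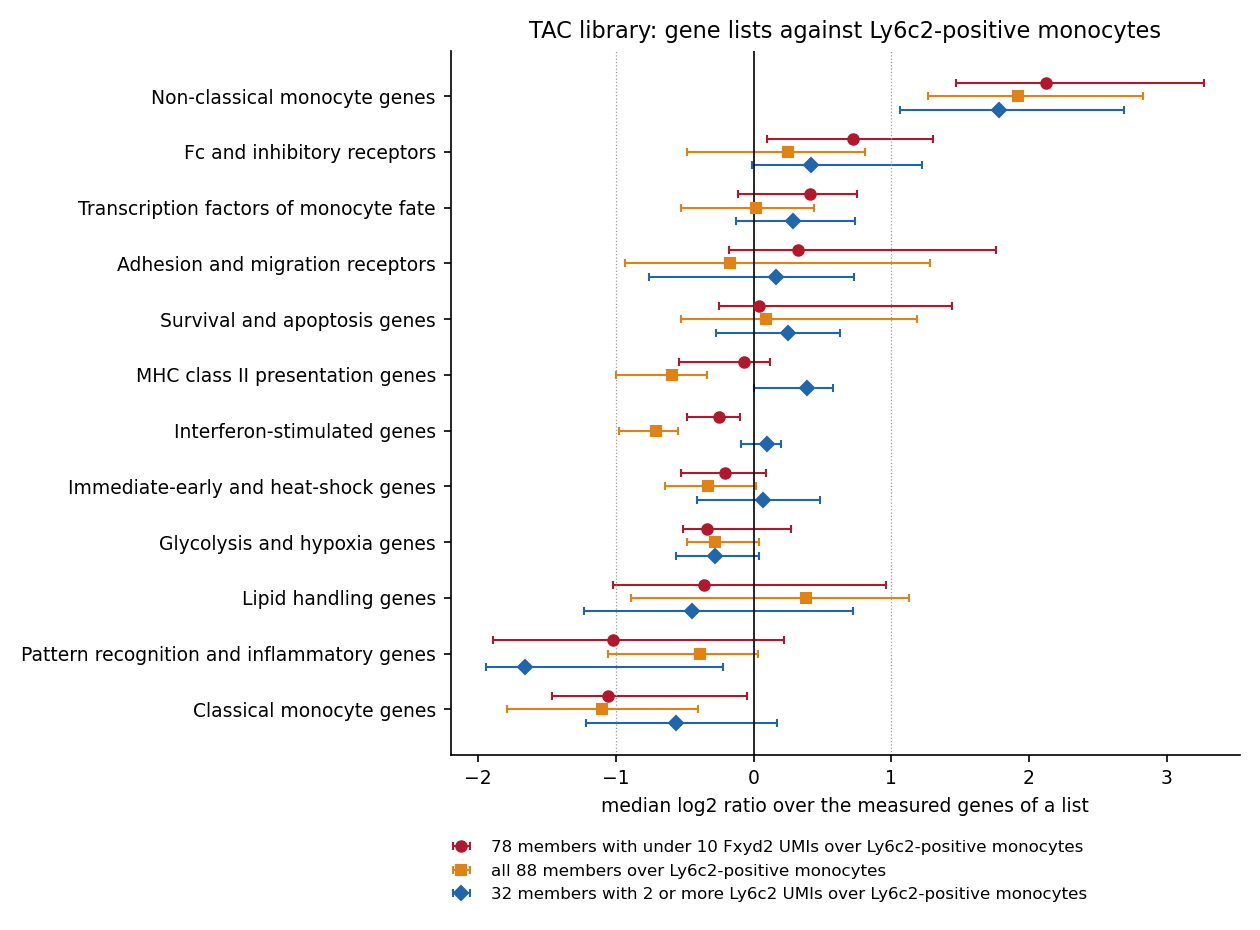
Median log2 ratio over the measured genes of 12 lists against Ly6c2-positive monocytes of the TAC library, for the 78 monocyte-like members, all 88 members and the 32 monocyte-like members with 2 or more Ly6c2 UMIs, with distribution-free 95% intervals over genes. The non-classical list stands at 2.12, 1.92 and 1.78 and the classical list at −1.06, −1.10 and −0.56, and dotted lines mark 2-fold.

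RNA of other cell types was low in the members and not uniformly lower than in the comparator. The rule limits genes of macrophages, neutrophils, fibroblasts, T cells and endothelium in both sets. Low levels of genes that go with these were therefore bound to follow, and the values are a description. Summed over each marker list, the 78 and the Ly6c2-positive monocytes stood at 1694 and 3011 CPM for 21 macrophage markers, with Cd163, Cd209f, Cd209g and Ccl24 at 0 in the 78. For 18 neutrophil markers they stood at 444 and 791 CPM, for 16 dendritic cell markers at 409.7 and 719 CPM, and for 15 NK cell markers at 120.2 and 153 CPM, with Ncr1 and Klrb1c at 0. For 13 B cell markers they stood at 99.1 and 126 CPM, for 12 T cell markers at 3.34 and 2.65 CPM and for 11 fibroblast markers at 86.8 and 114 CPM. The 15 endothelial markers were higher, at 399 and 123 CPM, with Cldn5, Tie1, Tek, Esam and Plvap at 0, and Fabp4 and Pecam1 supplied 230.5 and 92.4 CPM of that sum. Cardiomyocyte markers were at 30.1 and 18.5 CPM, and erythroid and platelet markers at 143 and 86.0 CPM. Their part in the results was not tested. Of the 88 members, 10 held at least 2 UMIs of a marker pair of another lineage or of the proliferation genes Mki67 and Top2a, 5 of them of the last.

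Barcodes over the C1q limit that met the rest of the rule formed a neighbouring set of 91 in TAC, with a median of 24109 UMIs. The C1q limit separates the sets, so macrophage genes were bound to differ. Both sets entered on 2 raw UMIs of the rule genes, and the 78 were shallower (median 10397.5 UMIs). The same cut thus asks for a higher level per UMI in the 78, also for genes that go with the rule genes. The values are a description. Of 2936 genes 144 were called higher (4.90%) and 215 lower (7.32%) in the 78 against those 91. Non-classical genes were called higher for 12 of 23 and lower for 0, at a median log2 ratio of 1.04 (0.71 to 1.42). Eno3 was at 248 and 68.6 CPM, 3.62-fold higher, Ear2 4.51-fold and Gngt2 2.68-fold (2.50 to 2.86), while Fcgr4 was at 1373 and 840 CPM and Cx3cr1 at 92.4 and 123 CPM, neither called. Of 16 measured macrophage markers 14 were called lower, with the scavenger receptor gene Mrc1 at 4.45 and 292 CPM.

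The 10 members with 10 or more Fxyd2 UMIs differed from the 78 in more genes, 462 of 3119 called higher (14.8%) and 929 lower (29.8%). Fxyd2 chose them and is no result. Spata7 had 154 UMIs in 8 of the 10 and 0 in the 78, at least 117-fold higher, and the tetraspanin gene Cd63 was at 683 and 4.45 CPM, 153-fold higher (59.2 to 567). Non-classical genes were called lower for 20 of 23 and higher for 1 (median −2.97). The higher one was Cx3cr1, with 75 UMIs in 9 of the 10 (395432 UMIs in all) and 83 in 33 of the 78 (898220 in all). Cd74 was at 905 and 9292 CPM, 10.3-fold lower, and Il1b at 93.6 and 2592 CPM, 27.7-fold lower. Fxyd2, Spata7, Cd63, Tnni2, Lyz1 and Rhoc were among the 15 highest ratios of all 88 members over Ly6c2-positive monocytes.

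Between the libraries, the 88 TAC members and the 7 sham barcodes that met the rule differed in depth and in marker genes, and their comparison is given briefly. Of 3042 genes 665 were called higher (21.9%) and 396 lower (13%) in TAC. Ly6a was at 1456 CPM in TAC and 0 UMIs in sham, at least 105-fold higher, Fcgr4 at 993 CPM and 0, at least 71.8-fold, and Saa3 at least 85.1-fold. Interferon-stimulated genes were called higher for 29 of 29 (median log2 ratio 4.50). Leaving out barcodes with 10 or more Fxyd2 UMIs, 78 in TAC and 3 in sham, that median was 2, the non-classical one 0.58 in place of 2.56 and the MHC class II one 0.03 in place of 2.25. Cell cycle genes were called lower for 10 of 10 (median −2.26), with Mki67 at 17.8 and 138 CPM and 1 barcode holding 65.2% and 73.3% of it, and the granule enzyme gene Lyz1 was 14.0-fold lower, with 91.6% and 99.6% of its UMIs in 1 barcode each.

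Cells outside the members differed between the libraries too. Fcgr4 was at 502 CPM in the other kept TAC barcodes and 29.7 CPM in the other kept sham barcodes. In the Ly6c2-positive monocytes, 90 in TAC and 27 in sham, interferon-stimulated genes were called higher for 20 of 39 and lower for 2 (median 1.04), and MHC class II genes higher for 7 of 9 (median 2.83), beside 8.66% of 2770 genes called higher and 4.55% lower. Of the rule genes, Treml4 and Cd300e were scarce in sham as a whole, while Ace was detected in 81.4% of unthinned sham fibroblast-marked barcodes. Treml4 was at 7.05 CPM in the other kept TAC barcodes and 1.80 CPM in the other kept sham barcodes, and Cd300e at 3.48 and 1.21 CPM.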

How the data were processed

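Single-cell RNA libraries of CD45+ heart cells were deposited as raw UMI counts per gene and barcode, which, per the submitters' processing notes, the authors made with Cell Ranger 3.0 and the mm10 genome. The sources used here do not say how cells were called. Droplet runs could not be separated, and doublets were not removed. Members and gene lists were chosen with earlier results of these data known. UMIs were summed per set and scaled to CPM, with exact Poisson intervals, and ratios carry exact conditional binomial intervals, all at 95%. List medians use 0.5 UMI added to each count and leave out genes the rule used. Lists share genes, so their counts are not separate results. Bcl2, Pou2f2, Itgal, Hpgd and Cd36 of the non-classical list also count in other lists, and Vegfa counts as inflammatory and as hypoxia gene. Against TAC Ly6c2-positive monocytes 1 non-classical and 0 classical measured genes were at 0 in a set, and the medians are the same with that gene at 3 counts. Named genes were the 15 highest and 15 lowest ratios with at least 50 UMIs over both sets (between libraries 10 each way, with at least 100 CPM and 30 UMIs), the non-classical and measured classical genes, and up to 3 highest and lowest of each other list, leaving out predicted, sex-linked, ribosomal and mitochondrial genes, haemoglobins and immune receptor segments. Further genes, such as Fxyd2, Hmga2 and those of the promoter search, were chosen after their values were seen. Thinning left out 1 fibroblast-marked barcode per library. The calculation was tested on simulated counts. It ran in Python 3.11.15 with scipy 1.17.1, numpy 2.4.6 and pandas 2.3.3, and matplotlib 3.10.9 drew the figures. Some named genes are not reported here. Alternatives changed 1 limit at a time.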

Additional observations from a re-analysis of the deposited data

Results flagged for a closer look

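The contrast of members with Ly6c2-positive monocytes gave medians of opposite sign in the libraries. The median log2 ratio of the non-classical monocyte genes was 1.92 in TAC (1.27 to 2.83, 18 of 23 called higher, 0 lower). In sham it was −1.30 (−2.22 to 1.11, 3 of 14 called higher, 9 lower). The sham interval over genes includes 0, so its direction is not settled. Over all 2595 genes measured in sham, 17.0% were called higher and 21.3% lower. The difference between the libraries was not tested, since each is 1 library. In sham 4 of the 7 barcodes behind the value had 51 to 238 Fxyd2 UMIs and they held 192962 of the 217128 UMIs.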

How the results depend on the processing

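With 1 library per group and 90 and 27 comparator barcodes, depth limits genes of few UMIs most. The share of members stayed higher in TAC under each alternative with a value, from 2.50 at a mitochondrial limit of 5% (1 sham member) and 3.43 with 1 UMI of the rule genes to 19.4 without members of 10 or more Fxyd2 or over 30000 UMIs, both added after seeing the data. With 4 or more UMIs of the rule genes no sham barcode was left, so that share and the comparison of libraries have no value. Genes called in members against Ly6c2-positive monocytes numbered 95 higher and 104 lower after thinning (fewer genes tested) and 500 and 427 without the CPM limit, and 269 were lower without members of 2 or more Ly6c2 UMIs. The non-classical median was 1.06 with 1 UMI of the rule genes, and the classical one −2.01 without members of 2 or more Ly6c2 UMIs. Between libraries, genes called higher and lower in TAC were 406 and 1060 at 5% mitochondrial UMIs, 391 and 143 with 1 UMI of the rule genes, 199 and 87 after thinning, and 1373 and 648 without the CPM limit, and 262 were lower at 25%. The MHC class II median between libraries turned to −1.09 at 5%. Where the construction does not show it, the cause was not tested. Of 355 other list medians recomputed, 304 stayed inside the interval of the reported value. No paired analysis was possible because each group has 1 library.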

Other observations

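Other gene groups were set against the Ly6c2-positive monocytes of TAC in the same way, for the 78 monocyte-like members and for all 88. Over all measured genes 6.79% were called higher and 5.30% lower in the 78, and 5.79% and 6.04% in all 88. Of 21 immediate-early and heat-shock genes 1 was called higher, Dusp2, a phosphatase of MAP kinases, at 185 and 46.3 CPM (3.99-fold), and 2 lower, Ier3 (2.64-fold) and Fosb (2.04-fold), with a median log2 ratio of −0.21 in the 78 and −0.33 in all 88. Of 16 glycolysis and hypoxia genes 0 were called higher and 2 lower (median −0.34, and −0.28 in all 88), Vegfa and the hypoxia factor gene Hif1a, at 92.4 and 195 CPM. The lactate dehydrogenase gene Ldha was at 395 and 325 CPM and not called. Of 19 renin-angiotensin and natriuretic genes other than Ace, 4 were measured and 0 were called. Lipid handling genes had 3 of 16 called higher and 4 lower in the 78 (median −0.36, −1.02 to 0.96). In all 88 there were 5 higher and 3 lower (median 0.38, −0.89 to 1.13). Both intervals include 0, so neither median showed a direction. In the 78 Fabp4, Hpgd and Cd36 were higher, and Lpl, the scavenger receptor gene Msr1 (3.63-fold) and Trem2 (2.56-fold) were among the lower. Of 7 measured neutrophil markers 4 were called lower and 1 higher in the 78 (median −2.45, −3.39 to 1.23), with Slpi 10.8-fold and Mmp8 10.2-fold lower. In all 88, 3 were lower and 0 higher (median −0.38, −3.53 to 0.75).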
